A study of Rattus norvegicus with 24 samples.

Results

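The cytosolic ribosomal protein genes are the protein components of the ribosome that translates messenger RNA outside the mitochondria. They were taken as the transcript clusters whose single platform gene symbol was Rpl or Rps with a number and at most 1 of the letters a, x, y or l, or was Rplp0, Rplp1, Rplp2 or Rpsa. A transcript cluster is the unit of the array for a gene or part of a gene, and the cluster with the highest mean signal stood for each symbol. This gave 72 genes out of 22037 with a single-symbol cluster, 45 of the large subunit and 27 of the small subunit. All 72 passed the filter on low values, which kept 16031 genes.

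The hearts came from male RccHan Wistar rats aged 7-8 weeks, an outbred stock with no genetic modification named in the labels. Treated animals received 800 mg/kg metformin, a biguanide used against type 2 diabetes, by daily gavage for 1, 3 or 14 days, and control animals received the vehicle of ethanol, Kolliphor HS 15 and tap water on the same days. RNA from the apex of the left ventricle was hybridised to 1-colour Affymetrix arrays, with 1 array per rat and 4 rats in each of the 6 groups of day and treatment. The labels name 5 animals assigned per group, so the arrays cover 4 of them. The study asked how the heart's transcripts respond to a high dose of metformin over time. The deposited values are linear intensities that were converted to log2, and differences below are log2 differences with n = 4 per group.

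Ribosomal proteins are made in matched amounts, and an unused protein is degraded. In vertebrates most of their messenger RNAs start with a C followed by a run of pyrimidines, the 5′ terminal oligopyrimidine (TOP) motif. Through this motif the kinase complex mTORC1 and the RNA-binding protein Larp1 control how strongly they are translated, so a change in translation of TOP mRNAs need not appear in the amount of RNA. Some subunits have a paralog with a narrower expression: Rpl3l is the striated muscle form of Rpl3, and Rps27l is a paralog of Rps27 that p53 induces in human cells.

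The 30 bases around the annotated RefSeq transcription start are shown for 5 genes with a TOP start and for the genes on which the results below turn. The windows run 5′ to 3′ on the gene's strand, 15 bases before the start and 15 from the start on, in assembly GRCr8. In the first 5 the capitals mark the C at the start and the pyrimidine run after it, and in the others the capital marks the annotated start base.
Rpl10, chrX:157205835-157205864, plus strand: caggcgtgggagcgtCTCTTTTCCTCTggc
Rpl14, chr8:129163605-129163634, plus strand: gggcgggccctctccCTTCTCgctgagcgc
Rpl19, chr10:83519049-83519078, plus strand: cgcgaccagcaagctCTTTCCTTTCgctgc
Rplp0, chr12:46718376-46718405, minus strand: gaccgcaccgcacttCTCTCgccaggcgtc
Rps27, chr2:177964592-177964621, minus strand: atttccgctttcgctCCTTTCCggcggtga
Rps27l, chr8:76443643-76443672, plus strand: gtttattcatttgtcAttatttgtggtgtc
Rpl3, chr7:113507976-113508005, minus strand: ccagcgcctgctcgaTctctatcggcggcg
Rpl3l, chr10:14258431-14258460, plus strand: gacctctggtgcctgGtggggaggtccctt
Rpl36, chr9:1533765-1533794, plus strand: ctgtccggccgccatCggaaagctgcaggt

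A start of this kind, a C followed by at least 4 bases that are C or T on the gene's strand, was found at the annotated start of 24 of the 62 genes with a RefSeq promoter entry (38.7%). The share among all 33469 promoters of the table was 2.63%. Within 10 bases of the start the motif was found in 75.8% of the 62 genes and in 28.9% of all promoters. Rps27 has the run at its start and its paralog Rps27l has none within 10 bases. Neither Rpl3 nor Rpl3l has it at the start, and within 10 bases Rpl3l has it and Rpl3 does not. The annotated start may not be the start used in the heart, so the count describes the annotation.

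The mean signal of the 72 genes over the 24 arrays ran from a log2 value of 5.79 (Rpl35, large subunit) to 19.5 (Rps29, small subunit). The scale ends near 19.93, where the highest value of every array lies, and 14 genes had means under 8. Rps29 was the gene closest to this ceiling, on average 0.41 below it, and no other gene came within 1 log2 unit. Its signal ran only from 19.42 to 19.56 over the 24 arrays, with a standard deviation within groups of 0.024, and whether the ceiling compresses its differences was not tested. The next closest, Rplp1 of the ribosomal stalk, lay 2.58 below the ceiling, and Rps4x lay 3.16 below.

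The standard deviation within groups had a median of 0.13 over the 72 genes, against 0.15 over all tested genes. It was largest in Rpl37a (0.30), Rpl37 (0.27) and Rpl13 (0.25), all of the large subunit. The standard error of a difference on a given day had a median of 0.09 over the 72 genes. Signals of different clusters are not on a common scale, so levels are not compared between genes.

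Many ribosomal protein genes have near-identical copies elsewhere in the genome, and several clusters can read the same RNA. The chromosome in the cluster's identifier was the RefSeq chromosome of the gene for 49 of the 72 clusters used and another chromosome for 10, and 13 clusters were not placed on a chromosome. Among all other clusters that could be compared, 98.6% lay on the gene's chromosome. The 10 include Rpl37a, Rps18, Rps29 and Rpl22, and the 13 include Rpl38, Rpl10a, Rps19 and Rps4x, so these signals may come in part from copies. Rpl3l, Rpl36, Rps27l, Rps6 and the stalk genes were read from clusters on their own chromosome.

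The 72 genes varied together from animal to animal. Over the 24 arrays, as deviations from the group means, the correlation of a gene with the per-array median of the 72 had a median of 0.65, against 0.04 over all tested genes, and 54 of the 72 lay above 0.5. The median includes the genes themselves, and arrays share their normalisation, so these values are a description. The correlation was under 0.2 in 6 genes, namely Rps27l (-0.03), Rpl18 (0.04), Rps28 (0.08), Rpl3 (0.11), Rpl28 (0.17) and Rplp2 (0.19). For the muscle form Rpl3l it was 0.72. The 5 genes outside the set with the highest correlation were Rps10-ps20 (0.90), LOC100909911 (0.89), LOC100912132 (0.88), Rps13-ps10 (0.86) and Galnt11 (0.85). By their symbols Rps10-ps20 and Rps13-ps10 are pseudogenes of ribosomal protein genes, and Galnt11 encodes a glycosyltransferase.

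**Figure D1:**
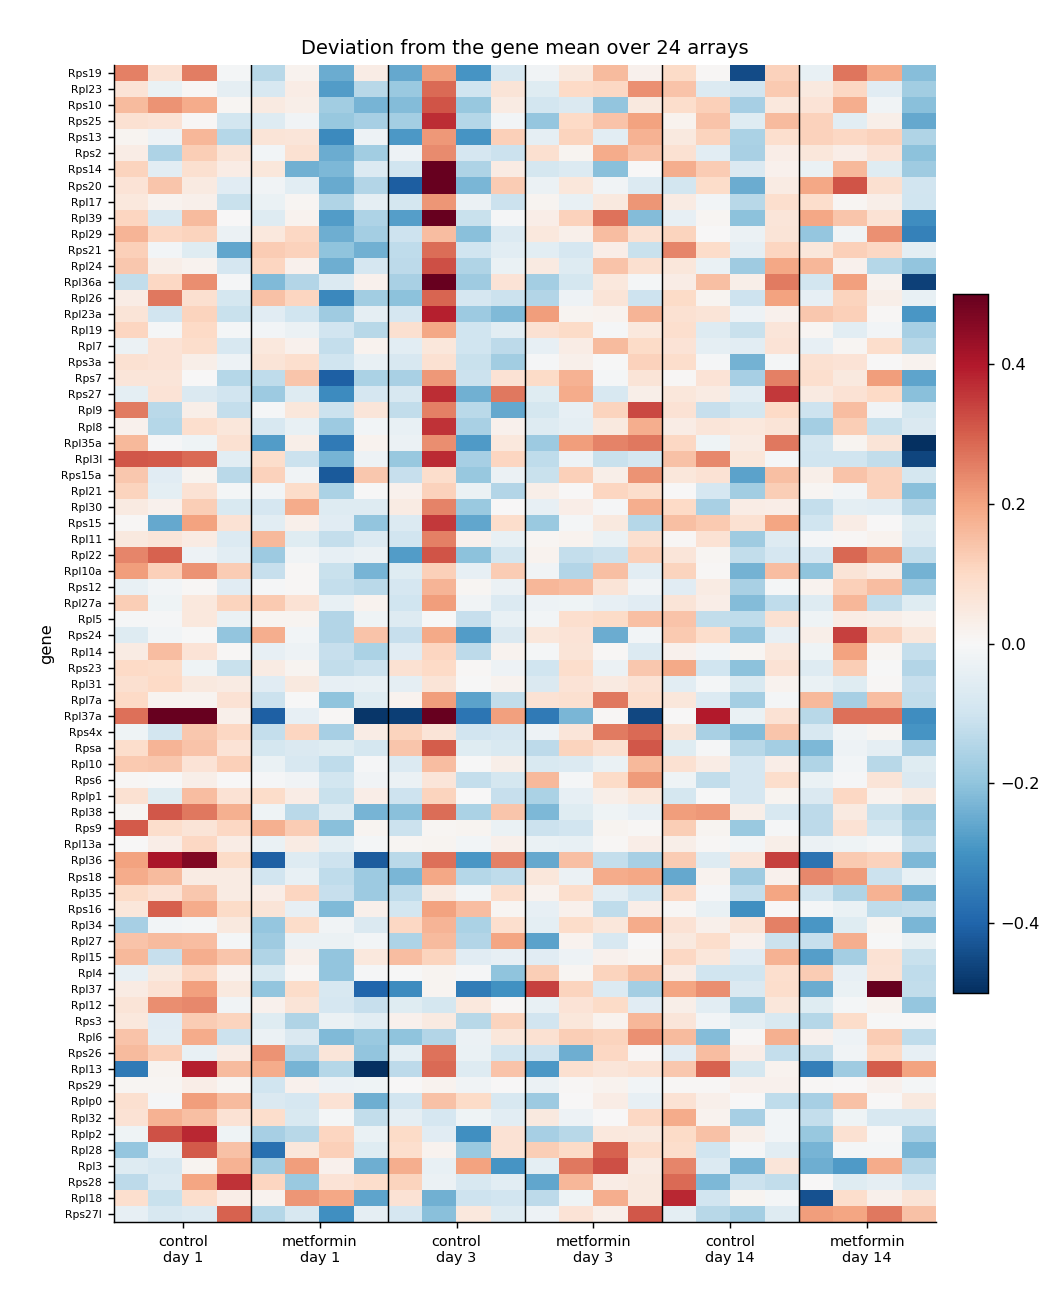
Heat map of the 72 ribosomal protein genes (rows, ordered by their correlation with the per-array median of the set) on the 24 arrays (columns, 4 per group). The colour is the log2 deviation from the gene's mean over all arrays, red above and blue below, with the scale ending at the strongest colours. Most rows are red on the second control array of day 3, and the rows at the bottom, such as Rps27l, Rpl18, Rps28 and Rpl3, do not follow the rest.

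For the labelled tissue, 7 of 8 ventricular cardiomyocyte markers were measured, and their means ran from 13.4 (Tnni3) to 19.9 (Actc1), where the array medians lay between 4.68 and 4.95. Of 4 atrial markers, Myl7 (5.31) and Myl4 (6.11) lay near those medians, Nppa had a mean of 15.1, and Sln ran from 4.94 to 10.6 over the arrays. Markers of other cell types varied between arrays of both arms. On the fourth control array of day 1 the mean of 7 skeletal muscle markers deviated by 1.92 from its mean over all arrays, with Myh4 at 9.67. The mean of 6 erythroid markers deviated by 1.43 on the second control array of day 3, by -1.80 on the second control array of day 14 and by -1.35 on the fourth treated array of day 14. Endothelial markers deviated by -1.10 on the second control array of day 3 and by -0.74 on the first treated array of day 14, where fibroblast markers deviated by -0.87, and atrial markers by 1.3 on the fourth treated array of day 3. In a bulk sample, fewer cells of a type and less RNA per cell cannot be told apart.

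The per-array median deviation of the 72 genes was 0.07, 0.03, 0.09 and 0.01 in the controls of day 1 and -0.03, 0.01, -0.12 and -0.07 after 1 day of metformin. The 2 groups lay next to each other without overlapping, the lowest control at 0.0086 and the highest treated heart at 0.0074. On day 3 the controls ran from -0.11 to 0.19 and the treated hearts from -0.04 to 0.06, and on day 14 the controls ran from -0.09 to 0.07 and the treated hearts from -0.13 to 0.04. The highest value of all, 0.19, was that of the control heart of day 3 with the highest erythroid marker level. The pooled standard deviation within groups was 0.08.

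Some lists of cell type markers moved in a single direction on day 1 and others did not. On that day 6 of 6 erythroid markers were lower with metformin with a median difference of -1.19, 4 of them at an unadjusted p under 0.05, 7 of 7 skeletal muscle markers were lower with a median of -0.33, and 5 of 5 fibroblast markers were higher with a median of 0.18. Of 5 endothelial markers 3 were higher and 2 lower (median 0.03), and of 4 atrial markers 2 were higher and 2 lower (median -0.04). Of 5 leukocyte markers 1 was higher and 4 were lower (median -0.07). The mean deviation of the ventricular cardiomyocyte markers was -0.002 in the day 1 controls, from -0.05 to 0.02. With metformin it was -0.04 on that day, from -0.07 to -0.01, so that the groups overlapped. None of these markers was called. The mean erythroid deviation ran from 0.32 to 1.22 in the day 1 controls and from -0.70 to 0.38 in the treated hearts of that day, so that the groups overlapped. In the mean over the 3 days 6 of 6 erythroid markers were lower, with a median of -0.63, and 0 were called. Correlations of the per-array median of the set were taken over the 24 arrays, as deviations from the group means. They were 0.45 with the erythroid, 0.45 with the ventricular cardiomyocyte, -0.54 with the endothelial and -0.23 with the skeletal muscle marker mean. With the atrial, fibroblast and leukocyte means they were -0.26, -0.20 and 0.15, and with the array median -0.46, as a description. With the erythroid level of each array as a covariate, the median difference of the ribosomal protein genes on day 1 was -0.04 in place of -0.12. That level had day 1 means of 0.89 in controls and -0.11 with metformin, so this fit cannot separate it from treatment. Among the day 1 controls, the heart lowest in erythroid level (0.32) had the highest median of the set (0.09). The control highest in erythroid level (1.22) had the lowest (0.01). Among the treated hearts, the one lowest in erythroid level (-0.70) also had the lowest median (-0.12). The treated heart highest in erythroid level (0.38) had a median of -0.07, and the one with the highest median (0.01) had a level of -0.40. The part of the erythroid or other markers in the day 1 difference was not tested.

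**Figure D2:**
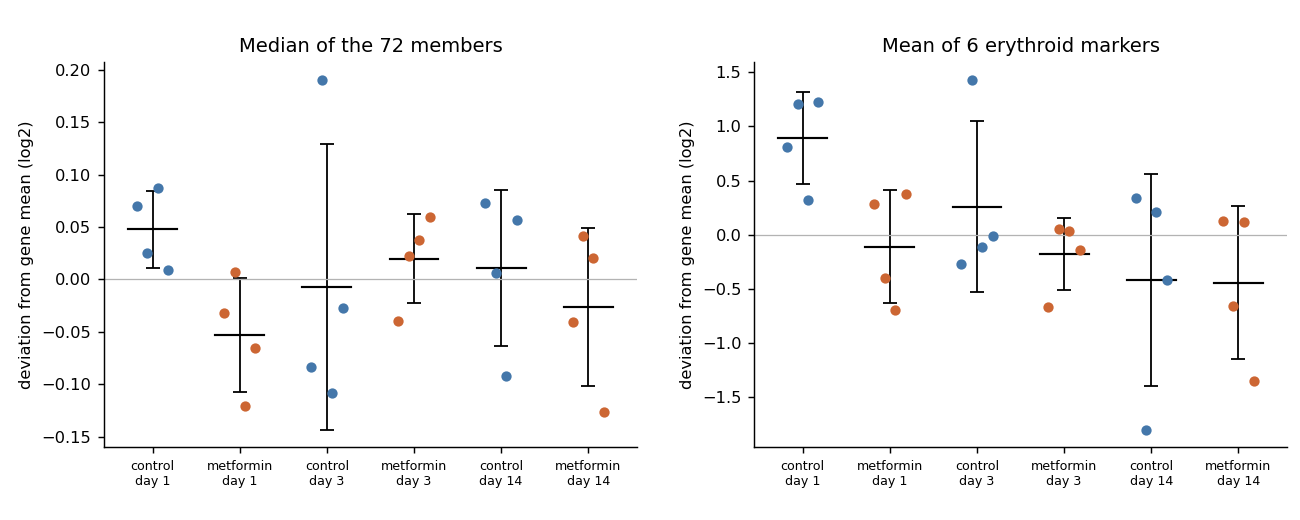
Per-array log2 deviation from the gene mean, for the median of the 72 ribosomal protein genes (left) and the mean of 6 erythroid markers (right), by group. Points are hearts, lines the group mean and bars 1 standard deviation (n = 4). On both panels the day 1 controls have the highest group mean and the second control heart of day 3 is the highest point.

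After 1 day of metformin, 69 of the 72 ribosomal protein genes had a lower mean than in the controls and 3 a higher one, against 51.6% of all tested genes lower. The sizes were small. The median difference was -0.12, against -0.005 over all tested genes, and 3 genes differed by more than 0.3. Of the 72, 38 were among the 1603 tested genes with the highest mean signal. Of those 1603 genes 57% were lower on day 1, with a median of -0.019. Large subunit genes were lower in 44 of 45 with a median of -0.13, and small subunit genes in 25 of 27 with a median of -0.11. No ribosomal protein gene was called by limma at an adjusted p under 0.05, and neither was any other gene (0%). At an unadjusted p under 0.05, 15 of the 72 were lower and 0 higher, where 4.17% of all tested genes were lower.

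The hearts of the 2 arms did not overlap on day 1 in 12 of the 72 genes, all lower with metformin, where the same held for 2.8% of all tested genes. These 12 were Rpl36, Rpl10a, Rpl37a, Rpl38, Rpl10, Rpl14, Rps18, Rpsa, Rpl27, Rpl19, Rpl7a and Rps6, and in Rps6 the difference was only -0.04 (SE 0.06). The genes share animals and vary together, so this count is not 12 separate observations. The median over the set stayed below 0 under every normalisation tried, but the number of lower genes was 55 after a second quantile normalisation, 58 after cyclic loess and 58 with the erythroid covariate. The 49 genes read on their own chromosome gave 48 lower, with a median of -0.11. The 24 genes with a TOP start gave 24 lower with a median of -0.13, and the 38 without gave 35 lower with a median of -0.11.

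Rpl36, a large subunit protein, had log2 values of 13.83, 14.04, 14.09 and 13.73 in the day 1 controls and 13.22, 13.57, 13.53 and 13.22 after 1 day of metformin. Every treated heart lay below every control. The difference was -0.54 (SE 0.14), with an adjusted p of 0.399. Rpl37a, also of the large subunit, had 15.67, 16.03, 15.99 and 15.43 in the controls and 14.99, 15.36, 15.41 and 14.91 in the treated hearts. These arms lay close to each other without overlap, and the difference of -0.62 (SE 0.20) came from the gene with the largest spread of the set (adjusted p 0.542).

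Rpl10a, a large subunit protein, had 12.54, 12.45, 12.56 and 12.46 in the controls and 12.22, 12.34, 12.22 and 12.10 in the treated hearts of day 1. All controls lay above all treated hearts, and the difference was -0.28 (SE 0.09, adjusted p 0.524). Rpl10, whose TOP start is shown above and whose protein joins the large subunit late in its assembly, had 8.50, 8.51, 8.44 and 8.49 in the controls and 8.34, 8.29, 8.24 and 8.36 in the treated hearts. Again no heart overlapped, and the difference was -0.18 (SE 0.06, adjusted p 0.615).

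After 3 days the pattern of day 1 was not present: 42 of the 72 genes had a higher mean with metformin, against 48.4% of all tested genes, and 30 a lower one, with a median difference of 0.02 against -0.005 over all tested genes. No ribosomal protein gene was called by limma, where 0.474% of all tested genes were, and 4 were higher and 0 lower at an unadjusted p under 0.05, where 3.73% of all tested genes were higher. The arms did not overlap in 2 genes, Rpl6 and Rpl28, both higher, where this held for 2.17% of all tested genes. Without the second control heart of day 3 the count was 58 higher and the median 0.08, and without the third it was 32 higher and the median -0.012. The smallest p values belonged to Rps6, Rpl6 and Rpl5.

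Rps6 encodes the small subunit protein that S6 kinase phosphorylates. It had 9.38, 9.47, 9.29 and 9.32 in the day 3 controls and 9.57, 9.40, 9.50 and 9.62 with metformin. The arms overlapped by the lowest treated heart, and the difference was 0.16 (SE 0.06, adjusted p 0.269). Rpl6, of the large subunit, had 12.39, 12.45, 12.57 and 12.65 in the controls and 12.67, 12.72, 12.71 and 12.82 with metformin. No treated heart overlapped the controls, and the difference was 0.22 (SE 0.09, adjusted p 0.339). Rpl5, which carries 5S ribosomal RNA and with Rpl11 binds Mdm2, differed by 0.13 (SE 0.06, adjusted p 0.423).

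After 14 days 25 genes were higher with metformin and 47 lower, against 55.2% of all tested genes lower, with a median difference of -0.024 against -0.018 over all tested genes, and the sign of that median turned to 0.040 after a second quantile normalisation and 0.046 after cyclic loess. No ribosomal protein gene was called by limma, where 0.281% of all tested genes were, and 1 was higher and 3 lower at an unadjusted p under 0.05, where 4.24% of all tested genes were higher and 8.5% lower. The arms did not overlap in 3 genes that were lower, Rpl34, Rpl3l and Rps15, where this held for 4.53% of all tested genes, and in 1 that was higher, Rps27l, where it held for 1.6%. The smallest p values were those of Rps27l, which was higher, and of Rpl34 and Rpl3l, which were lower. Rpl34, of the large subunit, had 13.69, 13.65, 13.69 and 13.87 in the day 14 controls and 13.33, 13.56, 13.63 and 13.39 with metformin. The arms did not overlap by a small margin, and the difference was -0.25 (SE 0.09, adjusted p 0.213).

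**Figure D3:**
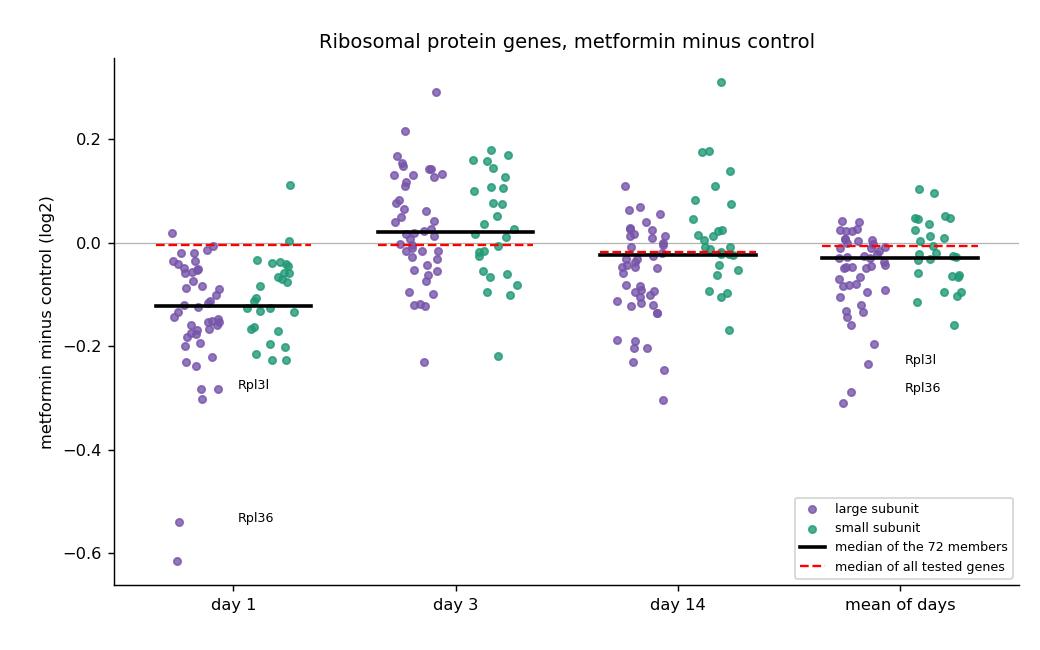
Log2 difference, metformin minus control, of each of the 72 ribosomal protein genes on days 1, 3 and 14 and in the mean of the 3 days. Points are genes, the black line is their median and the red dashed line the median of all tested genes. On day 1 the median of the 72 is -0.12 and 69 points lie below 0. On the other days the points lie on both sides of 0, and the sign of the day 14 and mean-of-days medians turned under a second quantile normalisation and under cyclic loess.

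In the mean of the 3 days Rpl3l and Rpl36 fell with metformin and were the 2 genes called among the 72, both of the large subunit. Over all tested genes 4.42% were called, 3.77% lower and 0.649% higher, so the share among the 72, 2.78%, is not above the background. A total of 51 genes were lower, against 52.8% of all tested genes, and 21 higher, with a median of -0.030 against -0.006 over all tested genes, and this median turned to 0.010 after a second quantile normalisation and 0.003 after cyclic loess. Of the 72 genes, 23 were lower on all 3 days and 1 was higher on all 3.

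Rpl3l takes the place of Rpl3 in ribosomes of heart and skeletal muscle. Its log2 values on day 1 were 13.56, 13.56, 13.54 and 13.20 in the controls and 13.34, 13.14, 13.02 and 13.23 with metformin, so the lowest control, which is the heart with skeletal muscle markers, overlapped the treated hearts. On day 3 they were 13.06, 13.62, 13.08 and 13.36 in the controls and 13.13, 13.23, 13.14 and 13.16 with metformin, with the treated hearts inside the range of the controls. On day 14 they were 13.40, 13.49, 13.31 and 13.25 in the controls and 13.15, 13.15, 13.13 and 12.79 with metformin, and every treated heart lay below every control.

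The difference of Rpl3l was -0.28 (SE 0.11) on day 1, -0.12 on day 3 and -0.30 (SE 0.11) on day 14. Its mean over the days fell by 0.23 (SE 0.07, adjusted p 0.0444), and 7 of the 12 control hearts lay above all 12 treated hearts. The call was lost in 17 of 24 runs that left out 1 array, where the difference ran from -0.26 to -0.20 and the adjusted p from 0.0214 to 0.0795. It was also lost after a second quantile normalisation (adjusted p 0.112), cyclic loess (0.15), with no filter (0.0656), with the replicate block (0.0549) and with the erythroid covariate (0.167, difference -0.19).

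The general form Rpl3 had group means of 8.31 ± 0.12 (SD, n = 4) in the controls and 8.26 ± 0.21 with metformin on day 1. On day 3 the means were 8.32 ± 0.23 and 8.45 ± 0.18, and on day 14 they were 8.30 ± 0.20 and 8.18 ± 0.21. The difference of day 1 was -0.06 with a 95% interval from -0.33 to 0.21, so a change of the size seen in Rpl3l cannot be set apart from none in this gene. The difference between the 2 paralogs was not tested.

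Rpl36 had 13.50, 13.91, 13.34 and 13.89 in the day 3 controls and 13.38, 13.78, 13.51 and 13.46 with metformin. On day 14 it had 13.76, 13.57, 13.69 and 13.97 in the controls and 13.26, 13.76, 13.75 and 13.41 with metformin. On both days the arms overlapped, so the groups were apart on day 1 alone. In the mean of the days it fell by 0.29 (SE 0.08, adjusted p 0.0479), with 6 of the 12 control hearts above all treated hearts. This call was lost in 16 of 24 runs without 1 array, with adjusted p from 0.0205 to 0.0878, and also after a second quantile normalisation (0.0984), cyclic loess (0.11), with no filter (0.0702), with the replicate block (0.0583), with the erythroid covariate (0.138) and without both control arrays high in muscle or erythroid markers (0.0703).

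Rpl38, a large subunit protein linked in mice to the translation of Hox mRNAs, was just outside the threshold. It had 12.81, 13.12, 13.07 and 12.98 in the day 1 controls and 12.78, 12.67, 12.74 and 12.57 with metformin, without overlap. Its mean over the days differed by -0.20 (SE 0.06, adjusted p 0.0548). The adjusted p was 0.0268 when all clusters of a symbol were averaged and 0.0228 when arrays were centred on their medians, but 0.232 after a second quantile normalisation, 0.229 after cyclic loess, 0.0811 with no filter and 0.163 with the erythroid covariate. It was under 0.05 in 4 of 24 runs without 1 array and was 0.112 without the 2 control arrays high in muscle or erythroid markers.

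**Figure D4:**
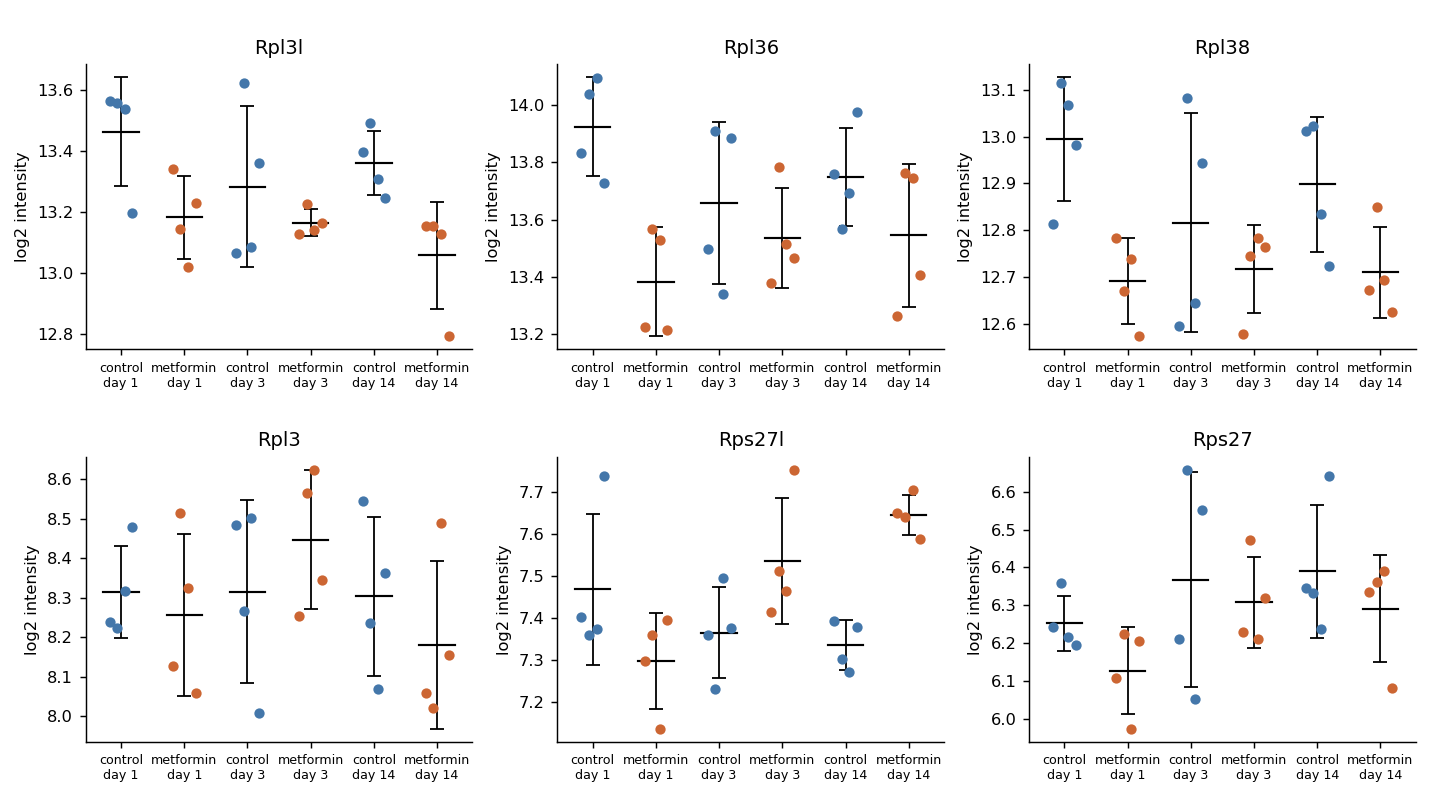
Log2 intensity of Rpl3l, Rpl36, Rpl38, Rpl3, Rps27l and Rps27 in each heart, by group. Points are hearts, lines the group means and bars 1 standard deviation (n = 4). On day 14 Rpl3l lies lower in every treated heart than in every control and Rps27l higher, while Rpl3 and Rps27 overlap on every day.

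Rps27l was the only gene of the set whose arms did not overlap on day 14 with the treated hearts higher. It had 7.39, 7.30, 7.27 and 7.38 in the day 14 controls and 7.65, 7.64, 7.70 and 7.59 with metformin. Every treated heart lay above every control of that day. The difference was 0.31 (SE 0.09, adjusted p 0.107).

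On day 1 Rps27l had 7.40, 7.36, 7.37 and 7.74 in the controls and 7.30, 7.36, 7.14 and 7.39 with metformin, and the high control was the heart with skeletal muscle markers. On day 3 it had 7.36, 7.23, 7.50 and 7.38 in the controls and 7.42, 7.51, 7.46 and 7.75 with metformin. The difference was thus -0.17 on day 1 and 0.17 on day 3, with overlapping arms on both days. A treatment effect that differed between days had an unadjusted p of 0.0023 and an adjusted p of 0.793 (F = 8.19), and over all tested genes 0% were called in that test.

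Within the treated arm Rps27l was 0.35 higher on day 14 than on day 1 (SE 0.09, adjusted p 0.081). Without the fourth control array of day 1, which enters that comparison through the shared estimate of spread, the adjusted p was 0.0446. In the test of any difference among the 6 groups it had an adjusted p of 0.0926 and of 0.0468 without that array. Rps27, the general form, had a day 1 difference of -0.13 (SE 0.11), and its groups overlapped on every day.

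The comparisons between days share the day 1 hearts of their arm, so the values are given side by side. In the controls, day 3 minus day 1 had 16 genes higher and 56 lower with a median of -0.06, and day 14 minus day 1 had 18 higher and 54 lower with a median of -0.05. Of all tested genes 50.5% and 47.9% were lower, with medians of -0.001 and 0.007. With metformin, day 3 minus day 1 had 60 higher and 12 lower with a median of 0.08, and day 14 minus day 1 had 47 higher and 25 lower with a median of 0.03. Here 47.1% and 49.9% of all tested genes were higher, with medians of -0.008 and -0.0002. No ribosomal protein gene was called by limma in any of these, and at an unadjusted p under 0.05 there were 2 and 4, all lower, in the controls and 10 and 1, all higher, with metformin. At that threshold 2.06% and 3.64% of all tested genes were lower in the controls and 2.9% and 6.27% higher with metformin. The share of all tested genes called was 0% and 0.381% in the controls and 0.0125% and 0.405% with metformin. The control day 1 hearts were also the group with the highest erythroid marker mean.

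In the controls the smallest p values between days were those of Rpl32, a common reference gene, on day 3 (-0.17, SE 0.06, adjusted p 0.999), followed by Rpl12 and by Rpl37a (-0.41, SE 0.20), and of Rps16 of the small subunit on day 14 (-0.24, SE 0.08, adjusted p 0.252). Rpsa, the small subunit protein also known as a laminin receptor, was 10.39, 10.48, 10.45 and 10.38 in the day 1 controls and 10.25, 10.30, 10.17 and 10.14 in the day 14 controls. All 4 later hearts lay below the earlier ones, and the difference was -0.21 (SE 0.09, adjusted p 0.347). Such a gap downwards held for 4 of the 72 genes and for 401 of the 16031 tested genes. Rpl12, of the large subunit near the stalk base, differed by -0.15 on day 3 and by -0.16 on day 14. With metformin the smallest p on day 3 was that of Rpl6 (0.26, SE 0.09, adjusted p 0.616), followed by Rps27l (0.24) and Rps6 (0.15), and Rps18 and Rps20 followed Rps27l on day 14, with 0.19 and 0.24.

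In the test of any difference among the 6 groups no ribosomal protein gene was called by limma, where 2.49% of all tested genes were, and 7 had an unadjusted p under 0.05, where 16.7% of all tested genes did. Rps27l, Rpl36 (adjusted p 0.186) and Rpl3l (adjusted p 0.206) had the smallest p values. For the treatment effect that differed between days, Rps18 and Rpl6 followed Rps27l, with unadjusted p values of 0.00966 and 0.0186. At an unadjusted p under 0.05 that test held 3 of the 72, where 4.95% of all tested genes passed.

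The stalk that recruits elongation factors is made of Rplp0, Rplp1 and Rplp2. On day 1 Rplp0 had 13.95, 13.87, 14.08 and 14.03 in the controls and 13.80, 13.79, 13.94 and 13.63 with metformin, which overlap by a single treated heart. Its difference was -0.19 (SE 0.08, adjusted p 0.679). Rplp2 differed by -0.22 (SE 0.10, adjusted p 0.727) on day 1, and Rplp1, the gene second closest to the ceiling, by -0.05 (SE 0.07), a sign that turned under both renormalisations.

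Among the other genes with a known further role, Rpl11 differed by -0.04 (SE 0.07) and Rpl5 by -0.04 (SE 0.06) on day 1, and both overlapped between arms. Rps19, the gene most often mutated in Diamond-Blackfan anaemia in people, differed by -0.23 (SE 0.13) and Rpl22 by -0.18 (SE 0.12), with adjusted p values of 0.813 and 0.854. Rps4x, the X-linked form of S4, differed by -0.07 (SE 0.10), a sign that turned under a second quantile normalisation and under cyclic loess. Of the genes often used as references, Rpl13a differed by -0.06 (SE 0.04), a sign that turned in the same 2 settings, Rpl32 by -0.15 (SE 0.06) and Rps18 by -0.22 (SE 0.09) on day 1, with adjusted p values of 0.903, 0.693 and 0.693.

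Rps29, the gene closest to the ceiling, had 19.53, 19.53, 19.56 and 19.53 in the day 1 controls and 19.42, 19.54, 19.50 and 19.50 with metformin. The arms overlapped, and its difference of -0.05 (SE 0.04) turned in sign under both renormalisations. Of the genes with the lowest signals, Rpl35 differed by -0.12 (SE 0.09), Rpl26 by -0.13 (SE 0.11) and Rps27 by -0.13 (SE 0.11). Of the genes with the largest spread, Rpl37 differed by -0.24 (SE 0.18) and Rpl13 by -0.23 (SE 0.17).

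The clusters left out when the brightest was kept moved in the same way on day 1. Of 48 further clusters of the same 72 symbols that passed the filter, 45 were lower with metformin on day 1 and the median was -0.14. Of 225 clusters whose symbols name copies or pseudogenes of ribosomal protein genes, 188 were lower and the median was -0.16, and on day 3 170 of them were higher with a median of 0.09. These clusters can share probes or reads of RNA with the 72, so they are not separate evidence.

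Proteins and genes around the ribosome were examined in 4 lists. Over all tested genes 51.6% were lower on day 1 and 52.8% in the mean of the days. The share of all tested genes called was 0% on day 1, 0.474% on day 3, 0.281% on day 14 and 4.42% in the mean of the days. Of 9 further ribosome-linked genes, 5 were measured and 0 were called in any treatment comparison. On day 1 Rack1, the scaffold protein of the small subunit, differed by -0.17 (SE 0.06, adjusted p 0.644) and Fau, which encodes the small subunit protein S30 as a fusion, by -0.13 (SE 0.09), and 4 of the 5 were lower. Rpl22l1, a paralog of Rpl22, differed by -0.23 in the mean of the days (SE 0.10, adjusted p 0.207), Fau by -0.09 and Rack1 by -0.06. Of 20 elongation and translation factors and other TOP genes, 19 were measured, 16 were lower and 3 higher on day 1 with a median of -0.07, and 0 were called. In the mean of the days 15 of these 19 were lower, with Eif4b (-0.10) and Eif4a2 (-0.09), of the helicase that prepares mRNA for the ribosome, at the smallest p values, followed by the muscle elongation factor Eef1a2 (-0.08), and 0 were called.

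Of 35 genes of ribosome assembly in the nucleolus, 25 were higher and 10 lower on day 1, against 48.4% of all tested genes higher. Their median was 0.06, and 0 were called on any day. In the mean of the days 21 were higher, against 47.2% of all tested genes. Rrp12, which acts in the export of pre-ribosomes, rose by 0.14 (SE 0.04, adjusted p 0.0409). It was the 1 gene of the list called, a share of 2.86% against 4.42% of all tested genes. Whether its call holds under the other ways of processing was not tested. Nop2, an rRNA methyltransferase, and Wdr12, a partner of Pes1 and Bop1, differed by 0.15 and 0.13 with adjusted p values of 0.0719 and 0.066.

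Of 20 regulators of TOP mRNA translation, 14 were lower and 6 higher in the mean of the days, against 52.8% of all tested genes lower. Of the 20, 1 was called, a share of 5% against 4.42% of all tested genes. That gene was Mtor, the kinase of mTORC1, which fell by 0.16 (SE 0.04, adjusted p 0.0154). Its inhibitor Deptor differed by -0.33 (SE 0.10, adjusted p 0.0604) and the sestrin Sesn1, which restrains mTORC1, by -0.25 (SE 0.08, adjusted p 0.0678). Larp1 differed by -0.02 (SE 0.03). On day 1 no regulator was called. These are RNA levels and give no measure of kinase activity or of translation. Whether the call of Mtor holds under the other ways of processing was not tested.

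The median of the set moved with the way arrays were scaled to each other. On day 1 the median difference was -0.12 as deposited, -0.06 after a second quantile normalisation, -0.06 after cyclic loess and -0.16 once the arrays were centred on their medians. For day 14 the same settings gave -0.02, 0.04, 0.05 and -0.12, with the median of all tested genes at -0.12 in the last. Differences also depended on signal strength. Spearman's rho between the difference and the mean signal was -0.13 on day 1 and -0.38 on day 14. It was taken across the 16031 tested genes, which are not independent replicates. Of the 1603 tested genes with the highest mean signal, 57% were lower on day 1 and 65.6% on day 14. Their medians were -0.019 and -0.046. The part of signal strength in the differences of the ribosomal protein genes was not tested.

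**Figure D5:**
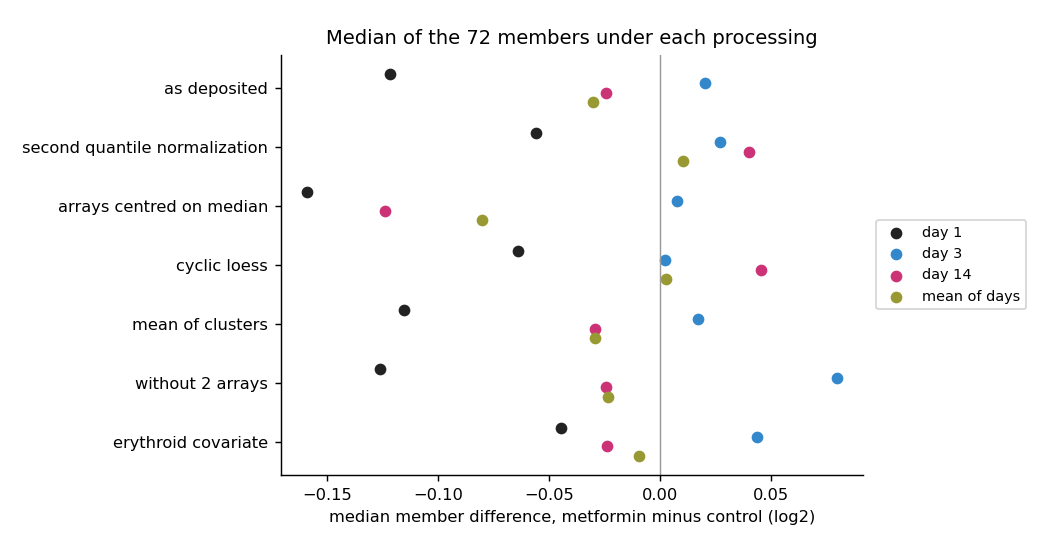
Median log2 difference, metformin minus control, of the 72 ribosomal protein genes on each day and in the mean of days (colours) under 7 ways of processing (rows). The day 1 median lies between -0.16 and -0.04 in all 7, while the day 14 and mean-of-days medians lie on both sides of 0. The 2 arrays left out are the fourth control of day 1 and the second control of day 3.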

How the data were processed

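RNA from the left ventricular apex of 24 rats was measured on Affymetrix arrays. The deposited values are linear intensities, 1 per array and transcript cluster, and RMA is named per the submitters' processing notes, with no version. The genome build of the clusters is not given in the sources used here. The table holds 68842 clusters, of which 23446 carry a single gene symbol, and the highest value of every array lies near 19.93 on the log2 scale. A log2 scale had been assumed when the tests were designed, so log2 was taken first.

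For each of 22037 symbols the cluster with the highest mean was used, and 16031 genes above the array's median on at least 4 arrays were tested. Groups came from the sample titles. limma 3.58.1 in R 4.3.3 fitted the 6 group means over 24 arrays, with moderated variances (eBayes) and Benjamini-Hochberg adjustment over all 16031 genes, and calls were made where the adjusted p lay below 0.05. The mean of days is the mean of the 3 daily differences. The labels call the arrays biological replicates, so p-values measure the spread between these animals, and the number of arrays limits the precision. The fit was tested on simulated data.

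The ribosomal protein genes and all gene lists were chosen with earlier results of these data known. Named by rule were the called genes of each comparison or, with fewer than 3, the 3 with the smallest p; genes with a paralog or known further role; the 3 highest, lowest and most variable; up to 3 per pathway list with the smallest p in the mean of days; and the 5 genes outside the set that varied most like it. Others were chosen after their values were seen. Alternatives were a second quantile normalisation, arrays centred on their medians, cyclic loess, no filter, the mean of a symbol's clusters, a block for the replicate number, only the arrays of a day, and leaving out each array. Leaving out 2 arrays together and an erythroid covariate were chosen after seeing the data. Start sequences and chromosomes are from RefSeq, GRCr8.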

Additional observations from a re-analysis of the deposited data

Results flagged for a closer look

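Among 192 groups of 4 values, those of 31 named ribosomal protein genes and of the median of the set in each of the 6 groups, 10 held a highest or lowest array set far apart from the other 3. That is 5.21%, and chance alone gives about 5% of groups, so no pattern is read from them.

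Rpl11, Rpl3l and Rps27l stood apart on the fourth control array of day 1, the heart with skeletal muscle markers. Rpl11 was 6.76 there, the lowest of its group, Rpl3l was 13.20, also the lowest, and Rps27l was 7.74, the highest. In the same group the third array was highest for Rps29, at 19.56.

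Among the other controls, Rpl37 was 8.63 on the second array of day 3, the heart with the highest erythroid level, and Rps16 was 8.61 on the third array of day 14, the lowest of its group. Among treated hearts, Rpl22 was 13.30 on the first array of day 1 and Rps6 was 9.32 on the third, both the lowest. Rpl13 was 12.22 on the first array of day 3, and Rpl3l was 12.79 on the fourth array of day 14, again the lowest of their groups.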

How the results depend on the processing

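Of 580 values of gene lists recomputed under the alternatives, 549 stayed within the limits set for a change and 31 moved. A median counted as unchanged if it moved by less than the pooled standard deviation within groups, 0.08, so a turn of sign could count as unchanged. A count of 0 that stayed 0 was also unchanged, and leaving out an array of another day cannot alter a day's difference. These totals are therefore no measure of stability. Of 1875 values of single genes, 1802 kept direction and call, where the tests over several groups have no direction. Only Rpl3l and Rpl36 in the mean of days had a call to lose. Their calls were lost in 17 and 16 of 24 runs without 1 array. In the mean of days 2 ribosomal protein genes were called as deposited. The count was 0 after a second quantile normalisation (384 of all genes), 0 after cyclic loess (438), 0 with no filter (536), 0 with the replicate block (378) and 0 with the erythroid covariate (371). It was 4 with arrays centred on their medians (903) and 1 without both the fourth control array of day 1 and the second of day 3 (514), and leaving out 1 array gave 0 to 3. As deposited, 708 of all genes were called. On day 3 the 76 calls over all genes became 42 after a second quantile normalisation or centring, 86 after cyclic loess, 29 with the block and 3 from the arrays of that day alone, and on day 14 the 45 became 8, 191, 24 and 0, with 7 after cyclic loess. Leaving out 1 array gave 27 to 144 on day 3 and 11 to 146 on day 14. No ribosomal protein gene was called on either day in these settings. Same-numbered arrays of the 2 arms correlated from -0.15 to 0.11, over 0.1 in 2 of 12 pairs. The sample titles do not say whether the numbers pair the samples, and these correlations cannot exclude it.

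Between treated day 14 and day 1 the count was 0, and leaving out 1 array gave 0 to 1, the 1 being Rps27l without the fourth control array of day 1; without both arrays it was 1. In the test of any difference leaving out 1 array gave 0 to 1, again Rps27l without that array, and without both arrays it was 2. With centred arrays the day 14 median was -0.12, with all genes at -0.12 in place of -0.02.

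Over all 72 genes, 3 were higher on day 1 as deposited. This count was 17 after a second quantile normalisation, 14 after cyclic loess and 14 with the erythroid covariate. Single genes were followed only among the 31 named ones, and those whose day 1 difference turned to higher are listed here. After a second quantile normalisation these were Rps6 (0.0021), Rpl34 (0.053), Rps4x (0.087), Rplp1 (0.13), Rpl13a (0.0083) and Rps29 (0.035). After cyclic loess they were Rpl34 (0.072), Rps4x (0.060), Rplp1 (0.087), Rpl13a (0.0093) and Rps29 (0.13). Without both arrays Rpl34 was 0.015, and with the erythroid covariate Rpl5 was 0.0088 and Rpl34 0.020. Leaving out 1 array gave ranges of -0.052 to 0.0020 for Rpl5, -0.060 to 0.035 for Rpl34 and -0.14 to 0.0070 for Rpl3. The cause of these changes was not tested.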
